A study of Mus musculus with 7 samples.

Results

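Thrombomodulin, the endothelial protein C receptor, protease-activated receptors, tissue factor and tissue factor pathway inhibitor were examined in mouse kidney. They were covered by 7 genes chosen by name: Thbd, Procr, F2r, F2rl1, F2rl3, F3 and Tfpi. All 7 were among the 17537 genes with values. All 7 also passed the filter of at least 1 CPM in at least 2 libraries that left 13976 genes for testing. CPM are reads per 1000000 reads of the library, with the library total scaled by the submitters' normalization (TMM). F2rl3 passed only through C replicate 2 and the DM+SGLT2i libraries. RNA was from renal tissue of wild-type C57BL/6 mice, labelled as male and aged 8 to 10 weeks at the start. The nondiabetic controls (C, replicates 2, 8 and 9) received vehicle. The DM-22 mice (replicates 1 and 2) were made hyperglycemic with streptozotocin, a toxin of the insulin-producing beta cell, at 60 mg/kg on 5 days and were followed to 22 weeks. The DM+SGLT2i mice (replicates 1 and 2) had the same streptozotocin course and then, from week 16 on, 6 weeks of dapagliflozin at 25 mg/kg in the drinking water, a drug that blocks glucose uptake in the proximal tubule. Nothing in the labels says more about the origin of the replicates, so that p-values measure the spread between these 7 libraries, which may be technical in part.

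Thrombomodulin binds thrombin on the endothelial surface and turns it from a clotting enzyme into the activator of protein C. The endothelial protein C receptor presents protein C to this complex and holds the activated form (aPC) at the membrane, where aPC signals by cleaving protease-activated receptors (PARs). Tissue factor starts clotting, and tissue factor pathway inhibitor blocks that start. In the kidney the first pair is known from glomerular and peritubular endothelium, tissue factor from glomerular epithelium, and PAR2 from tubular epithelium. The comparisons ask whether persistent hyperglycemia changed the transcripts of this system and whether they returned after glucose lowering. Both diabetic groups were compared with the same 3 controls and directly with each other.

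The genes lie on 4 chromosomes (GRCm38, GENCODE annotation). Thbd (ENSMUSG00000074743) is a single exon on the minus strand of chr2:148404466-148408188, and Procr (ENSMUSG00000027611) lies on the plus strand of the same chromosome at chr2:155751117-155755471. F2r (PAR1, ENSMUSG00000048376) at chr13:95601803-95618487 and F2rl1 (PAR2, ENSMUSG00000021678) at chr13:95511732-95525227 are neighbours on the minus strand: together they span 106756 bases, and no other gene with values lies within this span. F2rl3 (PAR4, ENSMUSG00000050147) is at chr8:72761880-72763874 on the plus strand, F3 (tissue factor, ENSMUSG00000028128) at chr3:121723537-121735048 on the plus strand, and Tfpi (ENSMUSG00000027082) at chr2:84432855-84476775 on the minus strand. No other annotated gene with values overlapped any of the 7.

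Promoters from RefSeq (GRCm38.p6, 250 bases before to 50 bases after the start) matched 5 of the 7 genes. Those of F2r and F2rl3 are shown because the levels of these receptors moved together, and those of F3 and Tfpi because they are the opposing pair. Capitals mark GGGCGG (the GC box), TATAAA (the TATA box) and CACCC (a core of Krüppel-like factor sites), each searched on both strands.
F2r, chr13:95618417-95618716, minus strand: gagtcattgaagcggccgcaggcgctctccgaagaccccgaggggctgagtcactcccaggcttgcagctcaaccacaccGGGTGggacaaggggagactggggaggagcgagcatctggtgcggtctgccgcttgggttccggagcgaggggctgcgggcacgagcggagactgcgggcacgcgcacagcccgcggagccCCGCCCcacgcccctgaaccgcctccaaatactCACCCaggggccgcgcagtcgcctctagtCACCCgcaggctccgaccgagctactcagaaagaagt
F2rl3, chr8:72761409-72761708, plus strand: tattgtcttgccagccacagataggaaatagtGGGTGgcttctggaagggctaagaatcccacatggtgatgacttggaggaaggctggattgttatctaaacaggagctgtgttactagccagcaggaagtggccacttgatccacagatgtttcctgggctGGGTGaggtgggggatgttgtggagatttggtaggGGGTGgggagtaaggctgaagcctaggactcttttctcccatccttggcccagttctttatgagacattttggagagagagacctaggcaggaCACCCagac
F3, chr3:121723287-121723586, plus strand: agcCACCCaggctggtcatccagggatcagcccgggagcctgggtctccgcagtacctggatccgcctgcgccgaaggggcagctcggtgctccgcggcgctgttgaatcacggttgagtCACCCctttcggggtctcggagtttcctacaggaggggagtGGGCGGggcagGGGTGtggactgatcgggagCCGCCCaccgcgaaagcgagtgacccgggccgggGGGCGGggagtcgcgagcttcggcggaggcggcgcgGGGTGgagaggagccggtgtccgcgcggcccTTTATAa
Tfpi, chr2:84476710-84477009, minus strand: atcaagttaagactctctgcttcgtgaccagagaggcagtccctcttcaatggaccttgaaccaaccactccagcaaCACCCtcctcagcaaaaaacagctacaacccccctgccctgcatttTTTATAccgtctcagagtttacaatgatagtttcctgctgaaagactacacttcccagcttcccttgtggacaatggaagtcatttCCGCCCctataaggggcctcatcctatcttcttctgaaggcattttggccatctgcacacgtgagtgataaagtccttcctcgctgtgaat

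The receptor promoters differed in base composition. That of F2r held 28 CpG dinucleotides and that of F2rl3 held 0, against a median of 7 over 32851 promoters of this length. F3 held 32 CpG, more than 90.5% of all promoters, and Tfpi 5. The table held another entry for Tfpi, at chr2:84474125-84474424, with 3 CpG, 1 CACCC, 1 GGGCGG and 0 TATAAA. The Procr promoter, on the plus strand of chr2:155750967-155751266, held 13. CACCC occurred 3 times in F2r, 4 times in F2rl3, 4 times in F3 and 1 time in Tfpi, and 57.5% of all promoters held it. GGGCGG occurred 3 times in F3, 1 time in F2r and in Tfpi and 0 times in F2rl3, and 35.7% of all promoters held it. TATAAA was found in F3 and Tfpi only among the 4 shown, and in 13.6% of all promoters. These matches describe letters in the window and do not identify binding sites.

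Libraries held between 46456125 and 56541594 reads on genes with values, and 1 read was worth between 0.0180 and 0.0231 CPM, so that even the lowest member, F2rl3, rested on 24 to 65 reads. No gene passed an adjusted p of 0.05 in any of the 4 comparisons with limma or with voom, and 625, 151, 547 and 285 genes had an unadjusted limma p under 0.05 in DM-22 against C, DM+SGLT2i against C, DM+SGLT2i against DM-22 and all diabetic mice against C. C replicate 2 stood apart from the other controls: macrophage markers summed to 572 CPM there against 151 and 152 CPM in C replicates 8 and 9, fibroblast markers to 651 against 149 and 201 CPM, and proximal tubule markers to 7850 against 17482 and 15204 CPM. Without it, limma called 2 (0.0143%), 17 (0.122%), 0 and 28 (0.2%) genes in the same order, none of them a member. The fold changes of the members and the counts of the lists against C are therefore given with and without this library. Tubular and endothelial markers identified all libraries as kidney, with 12 endothelial markers summing to between 812 and 1223 CPM.

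Per kilobase of exon, F2r was the most abundant of the 7 transcripts and F2rl3 the least. Mean levels over the 7 libraries were 29.1 CPM per kb for F2r, 15.8 for F2rl1, 9.42 for Thbd, 7.97 for F3, 1.59 for Tfpi, 0.975 for Procr and 0.466 for F2rl3. F2r exceeded F2rl1 in 6 of 7 libraries, F2rl1 exceeded Thbd in 6 and Thbd exceeded F3 in 5, and the ranges of these neighbours overlapped, so that their order was not fixed. F3 exceeded Tfpi, Tfpi exceeded Procr and Procr exceeded F2rl3 in each of the 7 libraries. Kidney thus held PAR1 and PAR2 transcripts in excess of PAR4, and PAR3 (F2rl2) was near absent, with 1 to 9 reads per library or 0.0181 to 0.208 CPM.

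**Figure D1:**
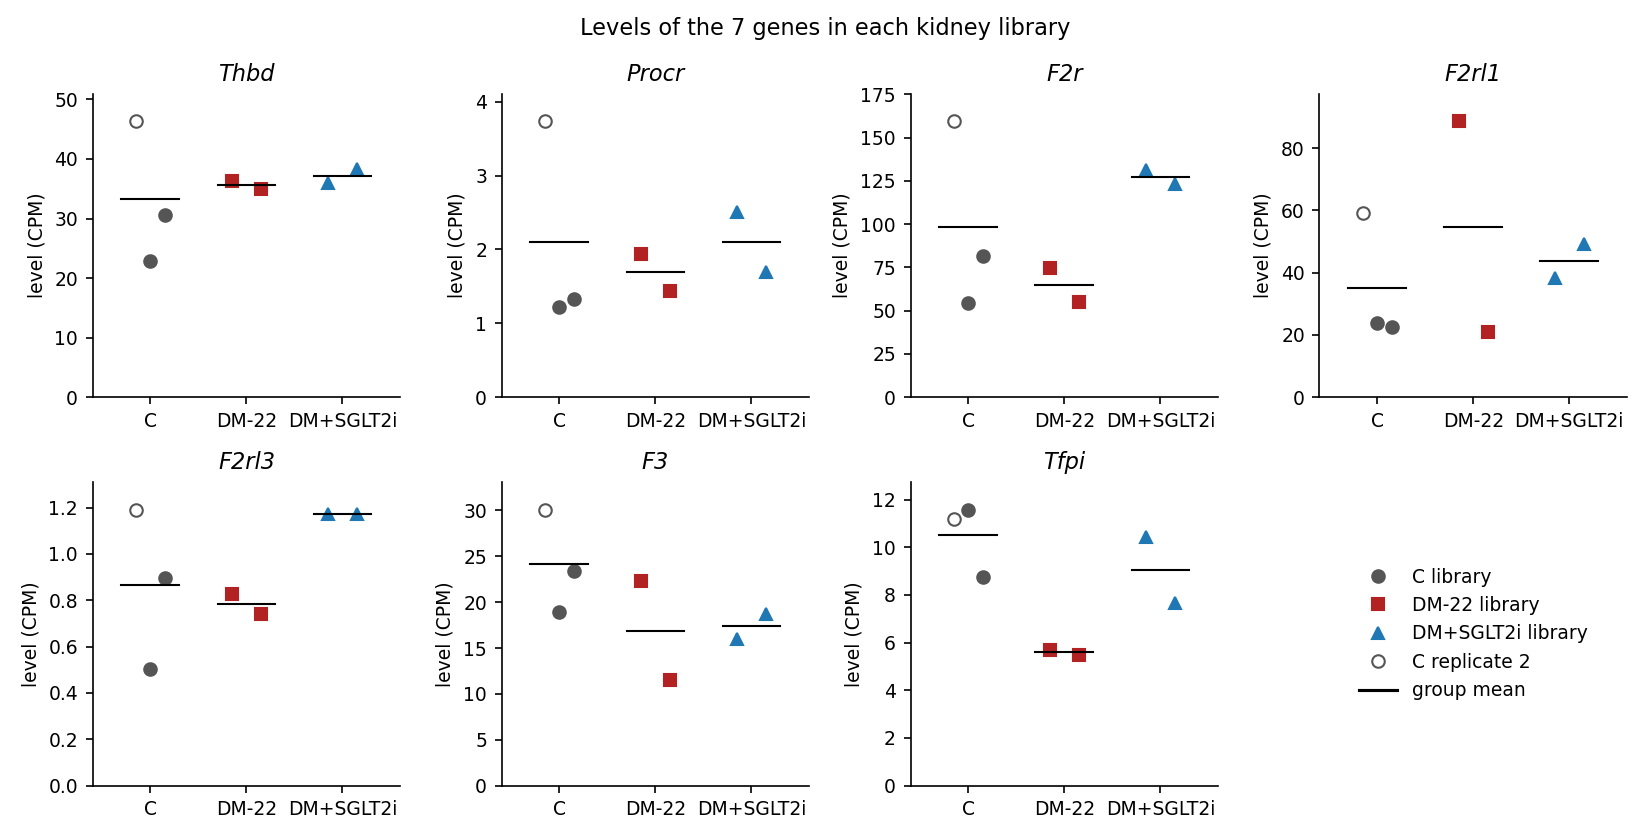
Level of each of the 7 genes (CPM, axes from 0) in the 3 C, 2 DM-22 and 2 DM+SGLT2i libraries, with the group mean as a line and C replicate 2 as an open circle. C replicate 2 is the highest library in 5 of 7 panels, DM-22 lies below both other groups for Tfpi, and the DM+SGLT2i libraries lie above DM-22 for F2r, F2rl3 and Tfpi.

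Thbd, the thrombin cofactor, was nearly constant among diabetic mice and varied among controls. It was at 46.4, 22.9 and 30.6 CPM in C replicates 2, 8 and 9, at 36.4 and 34.9 CPM in DM-22 replicates 1 and 2, and at 36.0 and 38.3 CPM in DM+SGLT2i replicates 1 and 2. All 4 diabetic libraries lay within the range of the controls, between C replicate 2 and the other controls. The mean was 33.3 ± 11.9 CPM (SD, n = 3) in C, 35.6 ± 1.03 (n = 2) in DM-22 and 37.1 ± 1.63 (n = 2) in DM+SGLT2i. The log2 fold change on the log2(CPM + 0.5) scale was 0.15 (SE 0.28, limma adjusted p = 0.898) in DM-22 and 0.21 (SE 0.28, adjusted p = 0.9997) in DM+SGLT2i against C. Without C replicate 2 both diabetic groups lay above both controls, at 0.42 (95% interval 0.018 to 0.82) and 0.48 (0.076 to 0.88), with limma adjusted p = 0.185 and 0.222. In that setting 3 of 12 endothelial markers were also higher at an unadjusted limma p under 0.05 in each diabetic group. Of all 13976 tested genes, 1455 were higher at this level in DM-22 and 1220 in DM+SGLT2i (25.2% and 17.9% in either direction). In DM-22, 6 endothelial markers lay above and 2 (Kdr and Egfl7) below both controls (59.5% of all genes in either direction). In DM+SGLT2i 7 lay above and 0 below (61.7%). The medians of the endothelial list were 0.27 and 0.28. Their part in the Thbd values was not tested. Over all 4 diabetic libraries the Thbd value without C replicate 2 was 0.45 (SE 0.14, adjusted p = 0.137). The treated and untreated diabetic mice differed by 0.058 (95% interval -0.67 to 0.79). Without C replicate 8, the lowest control, the values against C were -0.080 in DM-22 and -0.022 in DM+SGLT2i.

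Procr, which encodes the endothelial protein C receptor, was scarce. It was at 3.74, 1.22 and 1.32 CPM in C replicates 2, 8 and 9, at 1.94 and 1.43 CPM in DM-22, and at 2.5 and 1.70 CPM in DM+SGLT2i, from 58 to 204 reads a library. C replicate 2 was 2.94 times the mean of the other controls. The diabetic libraries all lay between it and those controls. Against C the log2 fold change was -0.12 (SE 0.44) in DM-22 and 0.12 (SE 0.44) in DM+SGLT2i, with adjusted p = 0.958 and 0.9997 from limma. Without C replicate 2 both were above 0, at 0.29 (95% interval -0.36 to 0.95) and 0.54 (-0.12 to 1.19), with adjusted p = 0.510 and 0.350 from limma.

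F2r encodes the main thrombin receptor of vascular and mesenchymal cells. F2r was higher on average in treated than in untreated diabetic mice, a difference that did not pass the test. It was at 159.6, 54.5 and 81.3 CPM in C replicates 2, 8 and 9, at 74.5 and 54.8 CPM in DM-22, and at 131 and 123 CPM in DM+SGLT2i. The controls spanned the range of both diabetic groups. Both DM+SGLT2i libraries lay above both DM-22 libraries, as was the case for 21.4% of all tested genes. DM+SGLT2i exceeded DM-22 by 0.99 on the log2 scale (1.98-fold, 95% interval 0.92 to 4.27, limma adjusted p = 0.881). Against C, DM-22 was at -0.48 (SE 0.42, adjusted p = 0.815) and DM+SGLT2i at 0.51 (SE 0.42, adjusted p = 0.9997). Without C replicate 2, DM-22 was at -0.058 (95% interval -0.64 to 0.52) and DM+SGLT2i at 0.93 (0.35 to 1.51, limma adjusted p = 0.159), and the difference between the diabetic groups, whose size uses no control, had an interval of 0.41 to 1.57 (limma adjusted p = 0.463). Without C replicate 8, the lowest control, DM-22 was at -0.83 and DM+SGLT2i at 0.16.

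Mesenchymal markers moved with F2r. Pdgfrb, the pericyte and mesangial platelet-derived growth factor receptor, was at 59.4, 39.4 and 49.9 CPM in C replicates 2, 8 and 9, at 31.7 and 41.8 CPM in DM-22, and at 69.3 and 61.5 CPM in DM+SGLT2i. Col3a1, a fibrillar collagen of fibroblasts, was at 156, 23.6 and 33.9 CPM, at 20.2 and 15 CPM, and at 115 and 82.3 CPM in the same order. Both were thus high where F2r was high. Of 6 fibroblast markers tested, 6 were higher in DM+SGLT2i than in DM-22 and 5 without overlap, beside 21.4% of all genes that were higher without overlap in this comparison, and their sum ran from 149 to 651 CPM in C, from 109 to 191 in DM-22 and from 367 to 495 in DM+SGLT2i. The 6 smooth muscle, mesangial and pericyte markers were likewise all higher, 5 without overlap, with sums of 175 to 386, 195 to 276 and 337 to 794 CPM. None of these marker genes was at 0 in any library. Macrophage markers were also all higher, 6 of 8 without overlap, with sums of 151 to 572, 171 to 310 and 289 to 339 CPM, and 5 adipose markers summed to 899 CPM in DM+SGLT2i replicate 1 against 1.16 to 27.3 CPM in the other libraries. The F2r difference lay between 0.77 and 1.21 when any 1 library was left out. The part of these markers in the F2r difference was not tested, and in whole tissue fewer cells of a type and less RNA per cell cannot be told apart.

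F2rl3, which encodes PAR4, the low-affinity thrombin receptor, was the scarcest. It was at 1.19, 0.505 and 0.897 CPM in C replicates 2, 8 and 9, at 0.828 and 0.740 CPM in DM-22, and at 1.17 CPM in both DM+SGLT2i libraries. The treated mice lay above the untreated diabetic mice and within the range of the controls. The log2 difference between them was 0.38 (95% interval -0.44 to 1.20), which is given as a description because F2rl3 reached 1 CPM only in DM+SGLT2i and in C replicate 2. Against C it was -0.056 in DM-22 and 0.33 in DM+SGLT2i, and 0.11 and 0.50 without C replicate 2, likewise as a description. Without C replicate 8 the values for F2rl3 were -0.26 and 0.12. Its level followed that of F2r across the 7 libraries with a Pearson r of 0.93, a description over libraries that share the same scaling. Platelets carry PAR4 in mice, and 5 of their markers summed to between 7.88 and 10.3 CPM per library. Of the 3 tested, Pf4 was higher and Ppbp lower in DM+SGLT2i than in DM-22 without overlap (21.4% and 20% of all genes). Their part in the F2rl3 values was not tested.

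F2rl1, which encodes PAR2, the receptor for trypsin-like proteases and for tissue factor with factor VIIa, varied most within DM-22. It was at 59.2, 23.7 and 22.6 CPM in C replicates 2, 8 and 9, at 88.7 and 21 CPM in DM-22 replicates 1 and 2, and at 38.2 and 49.0 CPM in DM+SGLT2i. DM-22 thus held both the highest and the lowest of the 7 libraries. Against C the log2 fold change was 0.44 (95% interval -1.14 to 2.03) in DM-22 and 0.44 (-1.14 to 2.03) in DM+SGLT2i, and it was 0.89 in each without C replicate 2, with limma adjusted p of 0.400 and 0.480. Leaving out DM-22 replicate 1 turned the DM-22 value to -0.59, and leaving out DM-22 replicate 2 raised it to 1.47. The DM+SGLT2i value was 0.21 without C replicate 9, 0.24 without C replicate 8 and 0.27 without DM+SGLT2i replicate 2.

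Slc14a2 and Aqp4 had the same highest and lowest library as F2rl1. They were picked from 8 markers of inner medulla and urothelium after their values were seen. Slc14a2, the urea transporter of the inner medullary collecting duct, was at 84.9, 23.7 and 25.6 CPM in C replicates 2, 8 and 9, at 267 and 2.84 CPM in DM-22, and at 14.8 and 88.5 CPM in DM+SGLT2i. Aqp4, a basolateral water channel of the collecting duct, was at 88.3, 23.0 and 26.2 CPM, at 109 and 3.91 CPM, and at 23.8 and 57.0 CPM. Both were highest in DM-22 replicate 1 and lowest in DM-22 replicate 2, as F2rl1 was. In DM+SGLT2i replicate 1, Slc14a2 lay below C replicates 8 and 9, whereas F2rl1, at 38.2 CPM, lay above them. Upk1b, a uroplakin of the same list, was at 14.9, 0.905 and 0.513 CPM in C, 3.51 and 0.301 CPM in DM-22, and 31.8 and 0.903 CPM in DM+SGLT2i. It was also lowest in DM-22 replicate 2 but highest in DM+SGLT2i replicate 1. The 8 inner medulla and urothelium markers summed to 51.9 to 250.0 CPM in C, 8.42 to 392 in DM-22 and 153 to 164 in DM+SGLT2i. Psca of this list was higher in both DM+SGLT2i than in both DM-22 libraries (21.4% of all genes). The 5 thick ascending limb markers summed to 6877, 5659 and 4788 CPM in C replicates 2, 8 and 9. Their sums were 15099 and 4899 CPM in DM-22 and 6154 and 8860 CPM in DM+SGLT2i. The sum of 7 collecting duct markers was also highest in DM-22 replicate 1, at 1259 CPM. The part of these lists in the F2rl1 values was not tested. St14 (matriptase), a membrane protease that activates PAR2, was at 162, 52.4 and 48.0 CPM in C, 177 and 79.9 CPM in DM-22, and 87.1 and 123 CPM in DM+SGLT2i. Receptor and protease were therefore high in the same libraries, C replicate 2 and DM-22 replicate 1.

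**Figure D2:**
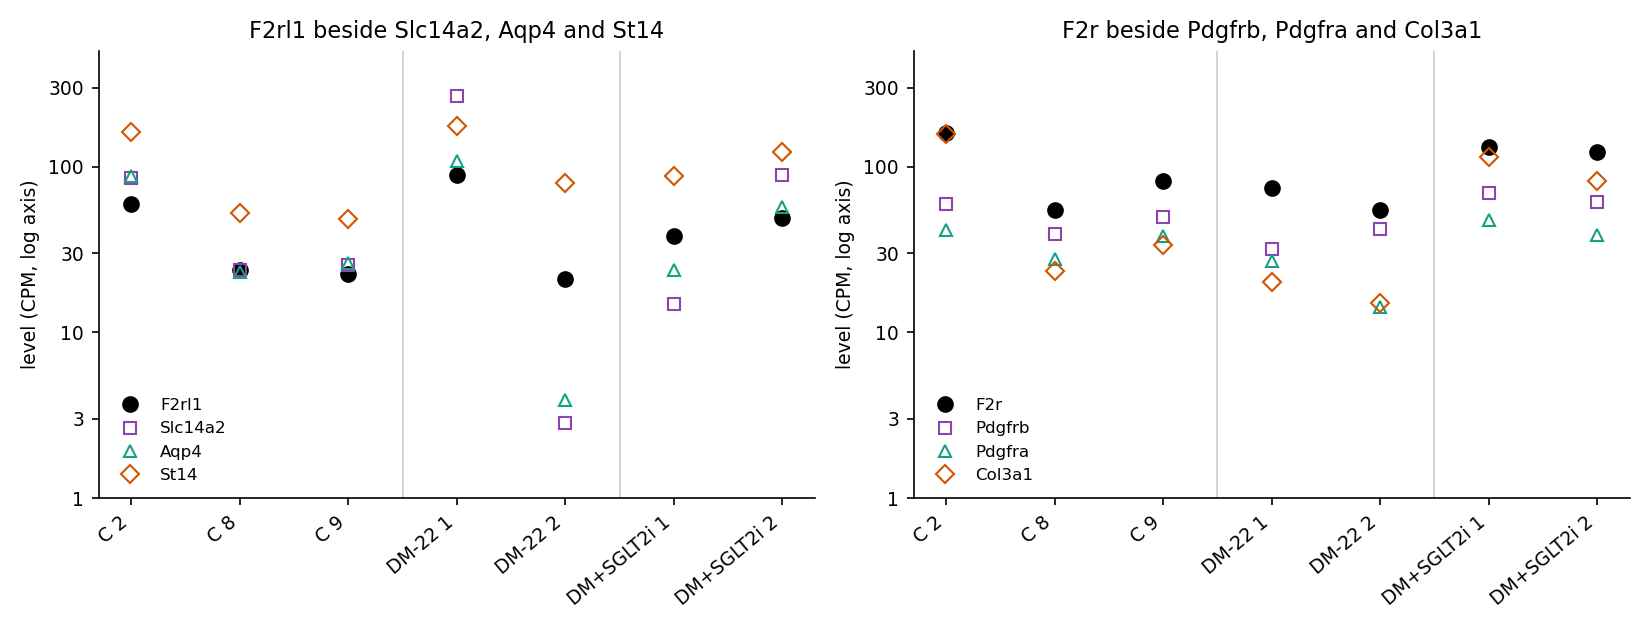
Levels (CPM, log axis) of F2rl1 beside Slc14a2, Aqp4 and St14 (left) and of F2r beside Pdgfrb, Pdgfra and Col3a1 (right) in the 7 libraries, with vertical lines between the groups. F2rl1, Slc14a2 and Aqp4 are each highest in DM-22 replicate 1 and lowest in DM-22 replicate 2, and F2r and Col3a1 are high in C replicate 2 and both DM+SGLT2i libraries.

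F3, which encodes tissue factor, was lower on average in diabetic kidneys, a difference that did not pass the test. It was at 30.1, 18.9 and 23.4 CPM in C replicates 2, 8 and 9, at 22.3 and 11.5 CPM in DM-22, and at 16 and 18.7 CPM in DM+SGLT2i. Both DM+SGLT2i libraries lay below all 3 controls, the nearest by 18.7 against 18.9 CPM, and DM-22 replicate 1 lay within the controls. The log2 fold change was -0.55 (95% interval -1.30 to 0.21, limma adjusted p = 0.804) in DM-22, -0.44 (-1.20 to 0.31, adjusted p = 0.9997) in DM+SGLT2i and -0.50 (-1.13 to 0.13, adjusted p = 0.988) over all diabetic mice. Without C replicate 2 these were -0.38, -0.28 and -0.33, with adjusted p between 0.473 and 0.673. Without DM-22 replicate 1 the DM-22 value was -1.01, and without DM-22 replicate 2 it was -0.087. C replicate 9 held immediate early transcripts far above the rest: Egr1, a factor known to act on the tissue factor gene, was at 1166 CPM there and between 3.10 and 80.6 CPM elsewhere, and Fos at 331 CPM against 0.740 to 5.43 CPM. F3 in that library, 23.4 CPM, was between the other controls.

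Tfpi, the inhibitor, was the 1 member whose 95% interval left out 0 with all 7 libraries. It was at 11.2, 11.6 and 8.74 CPM in C replicates 2, 8 and 9, at 5.71 and 5.48 CPM in DM-22, and at 10.4 and 7.68 CPM in DM+SGLT2i. The DM-22 libraries lay below all 5 others, and the DM+SGLT2i libraries overlapped with the controls. DM-22 was at -0.84 against C (SE 0.21, 0.557-fold, 95% interval 0.394 to 0.788, limma adjusted p = 0.804). DM+SGLT2i exceeded DM-22 by 0.63 (95% interval 0.085 to 1.18, limma adjusted p = 0.881) and stood at -0.21 (-0.71 to 0.29) against C. These 3 values were -0.79 (limma adjusted p = 0.112), 0.63 (limma adjusted p = 0.463) and -0.16 without C replicate 2. When any 1 library was left out, DM-22 against C lay between -0.96 and -0.77, DM+SGLT2i against DM-22 between 0.42 (without DM+SGLT2i replicate 1) and 0.84, and DM+SGLT2i against C between -0.42 and -0.0024. The difference between the diabetic groups had no unadjusted p under 0.05 without DM-22 replicate 1, DM-22 replicate 2 or DM+SGLT2i replicate 1. Over all diabetic mice the value was -0.53 (limma adjusted p = 0.988), with no unadjusted p under 0.05 without C replicate 8 or DM+SGLT2i replicate 2.

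Nuclear-retained RNAs, listed as a sign of RNA quality, were also low in DM-22, as were 3 of 6 fibroblast markers. Malat1, Neat1, Meg3 and Kcnq1ot1 summed to 94.8, 460 and 630 CPM in C replicates 2, 8 and 9, to 71.2 and 59.2 CPM in DM-22, and to 211 and 92.9 CPM in DM+SGLT2i. Both DM-22 libraries were thus below the other 5, as for Tfpi. In DM-22 against C 3 of the 3 tested were lower without overlap (9.29% of all genes), 2 of them at an unadjusted limma p under 0.05 (3.28%), with a median of -2.24. The 3 were also below both other controls without C replicate 2 (59.5% of all genes in either direction), with a median of -2.94. In that setting 3 had an unadjusted limma p under 0.05. Of all 13976 tested genes, 2070 were lower at this level (25.2% in either direction). Of 6 fibroblast markers 3 (Col1a1, Col3a1 and Pdgfra) were lower without overlap (9.29% of all genes), with and without C replicate 2 (59.5% in either direction without it). In each setting 1 of the 6 was lower at an unadjusted limma p under 0.05. The median of the list was -0.81 with C replicate 2 and -0.29 without it. The fibroblast sums overlapped, at 191 CPM in DM-22 replicate 1 against 149 CPM in C replicate 8. The part of both lists in the Tfpi values was not tested.

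**Figure D3:**
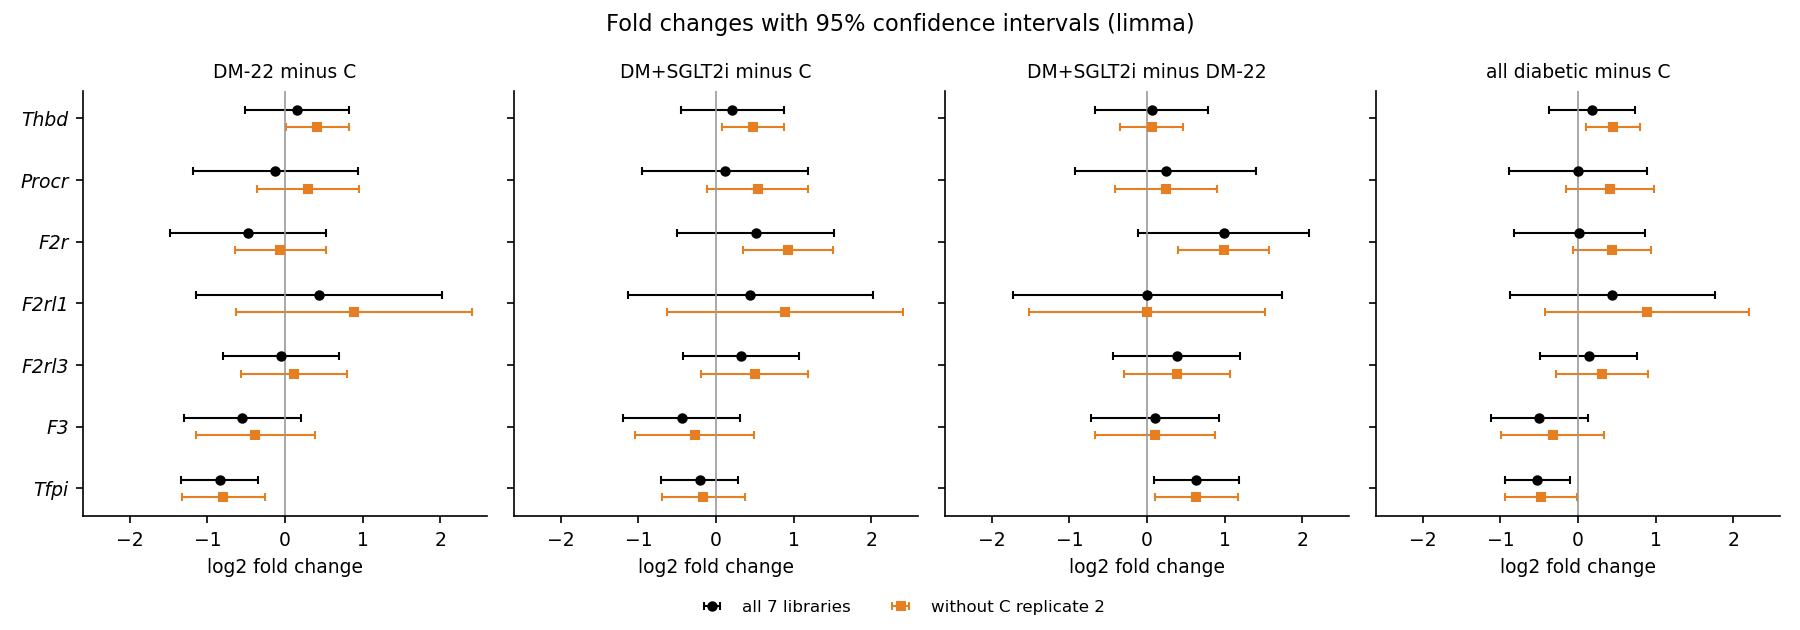
Log2 fold change of the 7 genes in the 4 comparisons (limma, bars are 95% confidence intervals before adjustment), with all 7 libraries (black circles) and without C replicate 2 (orange squares). The intervals of Tfpi in DM-22 against C lie below 0 with either set of controls, from -1.34 to -0.34 with all libraries, whereas those of Thbd lie above 0 only without C replicate 2.

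Counted over the comparisons, none of the 7 genes passed the adjusted threshold with limma, where 0% of all tested genes did. At an unadjusted limma p under 0.05, 1 member (Tfpi, lower) passed in DM-22 against C, where 4.47% of all tested genes passed, 3.28% in the lower and 1.19% in the higher direction. In DM+SGLT2i against C 0 members passed (1.08% of all genes). In DM+SGLT2i against DM-22 Tfpi passed as higher (3.91% of all genes, 2.25% higher and 1.66% lower), and in all diabetic mice against C as lower (2.04% of all genes, 1.38% lower and 0.658% higher). The split of these genes depended on the scaling. In DM-22 against C 166 were higher and 459 lower, against 252 and 396 with median-ratio scaling and 48 and 676 with scaling to the library total. The split in DM+SGLT2i against DM-22 was 315 and 232, against 279 and 376 and 444 and 68, and in all diabetic mice against C it was 92 and 193, against 51 and 254 with the library total. Without C replicate 2 the members passing were Thbd (higher) and Tfpi (lower) in DM-22 against C, where 25.2% of all genes passed, Thbd and F2r (higher) in DM+SGLT2i against C (17.9%), F2r and Tfpi (higher) in DM+SGLT2i against DM-22 (10.8%), and Thbd (higher) and Tfpi (lower) in all diabetic mice against C (24.8%).

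Groups that did not overlap were counted in the same way. In DM-22 against C 1 of 7 members did not overlap (Tfpi, lower), as did 20.1% of all genes, 10.8% higher and 9.29% lower. In DM+SGLT2i against C it was again 1 of 7 (F3, lower), beside 12.3% of all genes, 5.67% higher and 6.59% lower. In DM+SGLT2i against DM-22 it was 3 of 7 (F2r, Tfpi and F2rl3, the last with the limit on its filter given above, all higher), beside 41.5% of all genes, 21.4% higher and 20% lower. In all diabetic mice against C it was 0 of 7, beside 2.69%. The counts were 3, 6, 3 and 2 of 7 without C replicate 2, beside 59.5%, 61.7%, 41.5% and 35.9% of all genes. With 7 members these counts are not read as a result about the list. C replicate 2 was the highest of the 7 libraries for 5 members, which was the case for 16.4% of all tested genes, the highest control for 6 members (44.2%), and at least 1.5 times the higher of the other controls for 4 members (16.9%).

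Ratios within a library do not depend on its scaling. Of the 21 pairs of members, 2 (Thbd to F3 and F2rl3 to Tfpi) had ratios that did not overlap between the 4 diabetic and the 3 control libraries. The second holds F2rl3, with the limit on its filter given above, so that its ratio is a description. Of the pairs formed from all tested genes 2.94% did not overlap, and the count of 2 is not read as a result. The 2 pairs were looked for after the values were seen. The ratio of Thbd to F3, the anticoagulant cofactor to the initiator of clotting, was 1.54, 1.21 and 1.31 in C replicates 2, 8 and 9, 1.63 and 3.03 in DM-22, and 2.25 and 2.05 in DM+SGLT2i. The lowest diabetic library, at 1.63, was close to C replicate 2 at 1.54. The ratio of F2rl3 to Tfpi was 0.106, 0.0436 and 0.103 in C, 0.145 and 0.135 in DM-22, and 0.113 and 0.153 in DM+SGLT2i.

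The members were also set against the summed level of 12 endothelial markers in the same library. Thbd was 4.25, 2.83 and 3.53% of that sum in C replicates 2, 8 and 9, 2.97 and 3.76% in DM-22, and 3.51 and 3.49% in DM+SGLT2i, so that its level per endothelial RNA overlapped throughout. The log2 difference of all diabetic mice from C was -0.028 for Thbd (two-sided exact permutation test, p = 0.914). F3 was 2.76, 2.33 and 2.70% in C, 1.82 and 1.24% in DM-22 and 1.56 and 1.70% in DM+SGLT2i. All 4 diabetic libraries were below all 3 controls for F3, as were 2.42% of all tested genes. In CPM alone they overlapped, with DM-22 replicate 1 at 22.3 CPM against 18.9 to 30.1 CPM in C. That library had the highest endothelial sum, 1223 CPM. Podocyte markers summed to 355 and 882 CPM in DM-22 replicates 1 and 2 and to 494 to 658 CPM in C. F3 was not tested against podocyte markers. On the endothelial sum its log2 difference was -0.72 with an exact permutation p of 0.0571. This is the smallest p that 4 against 3 libraries can give, and it was 0.400 after adjustment over the 7 genes. Tfpi followed at -0.78 (exact permutation p = 0.114, adjusted 0.400), with DM+SGLT2i replicate 1 at 1.02% overlapping with the control range of 1.01 to 1.43%. The remaining members lay between -0.20 and 0.23, with exact permutation p of at least 0.629. F2rl3 is among them and in the adjustment over the 7 genes, with the limit on its filter given above. The differences without C replicate 2 were 0.12 for Thbd, -0.68 for F3 and -0.85 for Tfpi, and the others lay between 0.096 for F2r and 0.56 for F2rl1. Endothelial markers themselves did not pass the adjusted threshold: of 12, only Cdh5 (VE-cadherin) had an unadjusted limma p under 0.05 in DM+SGLT2i against C, at 0.55 (adjusted p = 0.9997), and none had one in DM-22. The count without C replicate 2 was 3 of 12 in each, as given beside Thbd.

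**Figure D4:**
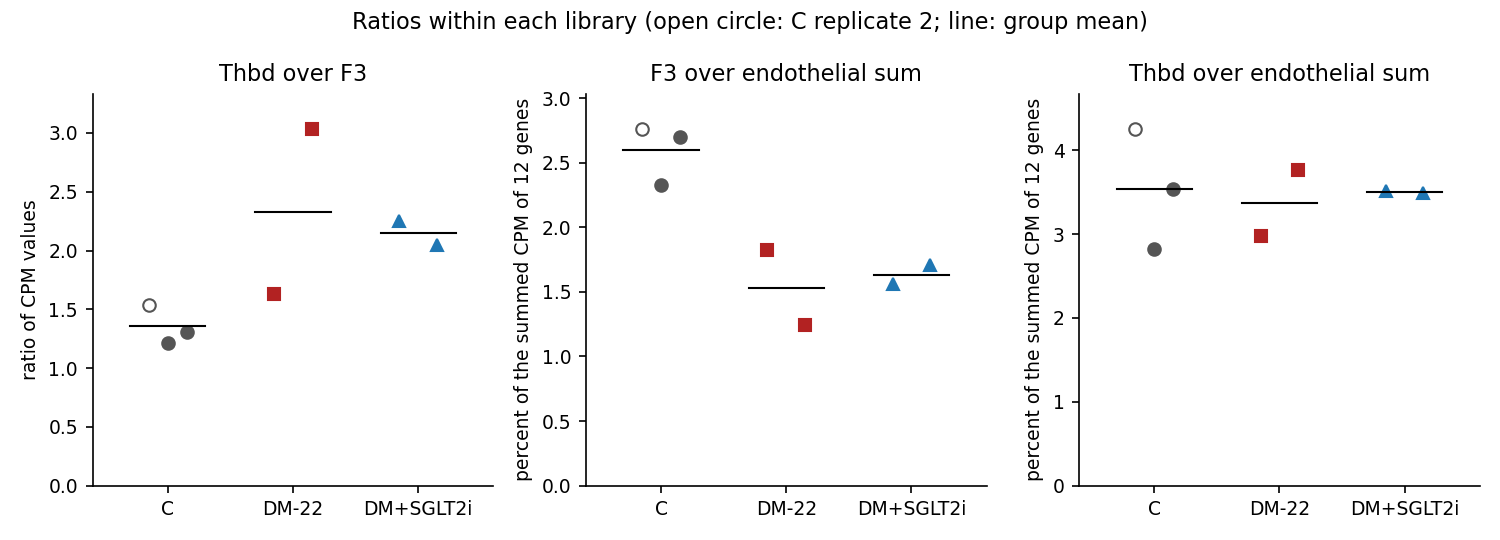
Ratio of Thbd to F3 (left), and F3 (middle) and Thbd (right) as a percentage of the summed CPM of 12 endothelial markers, in each library by group with group means as lines. The diabetic libraries lie above the controls in the left panel and below them in the middle panel, with no overlap, while the groups overlap for Thbd. In CPM alone the groups overlap for F3.

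The genes most like each member across the 7 libraries were named by Pearson r on log2 values. Thbd was followed most closely by Entpd1 (r = 0.996), which encodes CD39, an ectonucleotidase of vascular endothelium, by Glipr1 (0.991) and by Tgfb1 (0.987). Entpd1 was at 83.8, 50.7 and 62.4 CPM in C replicates 2, 8 and 9, at 72.4 and 69.5 CPM in DM-22 and at 70.5 and 76.0 CPM in DM+SGLT2i, with the same narrow range in diabetic mice. Procr was closest to Map6, Homer3 and Ramp1 (r of 0.984 to 0.995). F2r was closest to Plppr3 (0.995), Mmp14, a membrane collagenase (0.988), and Mfap4, a microfibril protein of the matrix (0.986). F2rl1 was closest to Rasl11b (0.998), Srgap3 (0.995) and Myo3b (0.994), and F2rl3 to Il1r1, Stc1 and Atp1b2 (0.977 to 0.984). Among the genes closest to F3 were Tcf21, a factor of podocytes and stroma (0.947), and Ccbe1 (0.939), and Tfpi was closest to Srpk2 (0.977), Nup107 (0.958) and 2410022M11Rik (0.956). These are descriptions over 7 libraries that share 1 scaling. Among the members, r was 0.80 between Thbd and Procr, 0.82 between Procr and F2r, 0.45 between F3 and Tfpi and -0.19 between Thbd and Tfpi.

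Around the members, no gene of the protein C pathway passed the adjusted threshold with all 7 libraries. Of 16 genes of the pathway and of aPC receptors, 14 were tested. In DM-22 against C, 0 were higher and 1 lower at an unadjusted limma p under 0.05 (1.19% and 3.28% of all genes), with a median log2 fold change of 0.12 against 0.0045 over all genes. In DM+SGLT2i the counts were 0 and 0 (0.665% and 0.415%) with a median of 0.31 against -0.013. The counts without C replicate 2 were 2 higher and 2 lower in DM-22 (25.2% of all genes in either direction) and 6 and 2 in DM+SGLT2i (17.9%), with medians of 0.28 and 0.66 against 0.0056 and -0.022 over all genes. With all libraries the lower gene was Lrp8, the ApoE receptor 2 that also binds aPC, at 2.07, 2.13 and 1.20 CPM in C, 0.846 and 0.462 CPM in DM-22, and 3.25 and 2.98 CPM in DM+SGLT2i. It was below all controls in DM-22 and above them all in DM+SGLT2i, a difference of 1.67 between the diabetic groups (SE 0.34, limma adjusted p = 0.881). Proc, protein C itself, was transcribed in the kidney at 133, 228 and 209 CPM in C, 182 and 221 CPM in DM-22, and 136 and 169 CPM in DM+SGLT2i. Pros1 (protein S, its cofactor, looked at after its values were seen) was at 51.6, 20.0 and 23.5 CPM, at 28.4 and 38.1 CPM and at 39.9 and 41.4 CPM. Without C replicate 2, Pros1 was at 0.59 and 0.89 against C in the untreated and treated diabetic mice, with adjusted p of 0.126 and 0.110 from limma. F5, factor V, a target of aPC, was at 0.880 CPM in C replicate 2 against 27.7 and 18.8 CPM in the other controls, and between 2.48 and 10.2 CPM in diabetic mice, so that its fold change in DM-22 ran from -0.68 with to -2.04 without that library (adjusted p = 0.905 and 0.132). The highest fold changes were those of S1pr1, the sphingosine phosphate receptor that aPC engages (0.60 in DM-22), and of the integrin chain Itgb3 (0.31 in DM-22 and 0.87 in DM+SGLT2i).

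Of 20 coagulation factors and their modifying enzymes, 15 were tested, with medians of 0.20 in DM-22 and 0.29 in DM+SGLT2i. In DM-22 0 passed at an unadjusted p under 0.05 in either direction (4.47% of all genes), and in DM+SGLT2i 0 were higher and 1 lower (0.665% and 0.415%). Leaving out C replicate 2 gave 2 higher and 1 lower in DM-22 (25.2% in either direction) and 3 and 1 in DM+SGLT2i (17.9%), with medians of 0.32 and 0.70. With all libraries the lower gene was F2, prothrombin, at 4.07, 3.03 and 1.54 CPM in C, 2.36 and 0.116 CPM in DM-22, and 0.352 and 0.632 CPM in DM+SGLT2i (log2 fold change -1.71 in DM+SGLT2i, SE 0.68, limma adjusted p = 0.9997). F13a1, the factor XIII subunit of macrophages and platelets, was at 1.72 in DM+SGLT2i and -0.39 in DM-22. Fga, a fibrinogen chain made in injured tubules, was at 36.7, 22.5 and 16.9 CPM in C, 74.2 and 21.6 CPM in DM-22, and 58.4 and 45.8 CPM in DM+SGLT2i, and both treated libraries exceeded all controls. The other extremes in DM-22 were Kng2, a kininogen, at 0.60 and Proz, protein Z, at -0.49.

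Of 16 coagulation inhibitors and fibrinolysis genes, 14 were tested and 0 passed in DM-22 or in DM+SGLT2i against C, with medians of 0.028 and 0.23 (4.47% and 1.08% of all genes passed). The counts without C replicate 2 were 2 higher and 2 lower in DM-22 and 3 and 2 in DM+SGLT2i (25.2% and 17.9%), and the medians were -0.042 and 0.21. The highest values were those of Cpb2 (the thrombin-activated carboxypeptidase), at 0.69 and 1.03. Hrg, a histidine-rich plasma protein, was at 0.568 CPM in C replicate 2 and 13.3 and 15.5 CPM in the other controls, so that its value in DM-22 turned from 0.64 to -0.63 without that library. Plg, plasminogen, was at -0.51 in DM-22, and Serpine2, a thrombin inhibitor of cell surfaces, at 0.84 in DM+SGLT2i.

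Downstream of the PARs, 21 genes of G protein and arrestin signalling were tested, with medians of -0.076 in DM-22 and 0.0017 in DM+SGLT2i. In either diabetic group 0 passed against C (4.47% and 1.08% of all genes). Leaving out C replicate 2 gave 0 higher and 3 lower in DM-22 and 1 and 1 in DM+SGLT2i (25.2% and 17.9%), with medians of -0.13 and 0.017. Dvl2, the scaffold of the arrestin path used by aPC, was at 9.14, 11.5 and 13.3 CPM in C, 7.88 and 8.14 CPM in DM-22, and 8.73 and 7.57 CPM in DM+SGLT2i, below all controls in every diabetic library. Over all diabetic mice it was at -0.45 (SE 0.17, limma adjusted p = 0.988), and at -0.59 without C replicate 2 (adjusted p = 0.0888). Gna11, a G protein alpha subunit, was the opposite case, at 104, 106 and 101 CPM in C and between 111 and 124 CPM in diabetic mice, a difference of 0.16 (adjusted p = 0.988). For all diabetic mice against C, 1.31% of all genes lay above and 1.38% below the controls without overlap. Plcb1, the phospholipase downstream of Gq, was higher in DM+SGLT2i than in DM-22 by 0.52 (limma adjusted p = 0.881). The other extremes in DM-22 were Rac1 at 0.20 and Plcb2, a phospholipase C, at -0.54, and in DM+SGLT2i Plcb4 at 0.67, Grk5 at 0.26 and Arrb2 at -0.11.

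Of 16 proteases that cleave PARs and their inhibitors, 11 were tested and 0 passed in either diabetic group, with medians of 0.28 in DM-22 and 0.051 in DM+SGLT2i (4.47% and 1.08% of all genes passed). The counts without C replicate 2 were 4 higher and 0 lower in DM-22 and 2 and 3 in DM+SGLT2i (25.2% and 17.9%), with medians of 0.50 and 0.16. St14 was at 0.68 and 0.48, and at 1.24 and 1.04 without C replicate 2 (limma adjusted p = 0.132 and 0.240). Mmp9, a gelatinase, was at 0.083 and 0.73, and Mmp13, a collagenase that cleaves PAR1, at -0.11 and -0.72. Further extremes were Spint2, an inhibitor of matriptase, at 0.46 and Prss8, prostasin, at -0.17 in DM-22, and Pcsk6 at 0.65 and Hpn, hepsin, at -0.26 in DM+SGLT2i. Of 15 transcription factors known to act on Thbd, Procr or F3, 15 were tested, with medians of -0.19 and -0.054. Klf2, which induces thrombomodulin in endothelium under flow, was at 21.6, 17.0 and 28.2 CPM in C, 36.5 and 25.4 CPM in DM-22, and 24.2 and 22.2 CPM in DM+SGLT2i (log2 fold changes 0.47 and 0.089). Mef2c, which acts upstream of Klf2, was the 1 gene of this list with an unadjusted limma p under 0.05 in DM-22, at -0.49 (limma adjusted p = 0.804), where 3.28% of all genes were lower, and 0 passed in DM+SGLT2i. Leaving out C replicate 2 gave 0 higher and 3 lower in DM-22 and 0 and 2 in DM+SGLT2i (25.2% and 17.9%), with medians of -0.23 and -0.13. Rela was at 0.26 in DM-22, and Mapk7 and Klf4 at 0.24 and 0.19 in DM+SGLT2i. Fos and Jun, the AP-1 chains, were lower in all 4 diabetic libraries than in all 3 controls, as were 1.38% of all genes. Jun was at 49.4, 65.5 and 563 CPM in C, 44.0 and 36.4 CPM in DM-22, and 36.3 and 41.4 CPM in DM+SGLT2i, with fold changes of -1.62 for Jun and -3.20 for Fos over all diabetic mice (limma adjusted p = 0.988 for both). The sizes rest on C replicate 9, and the nearest libraries were 49.4 against 44.0 CPM for Jun.

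**Figure D5:**
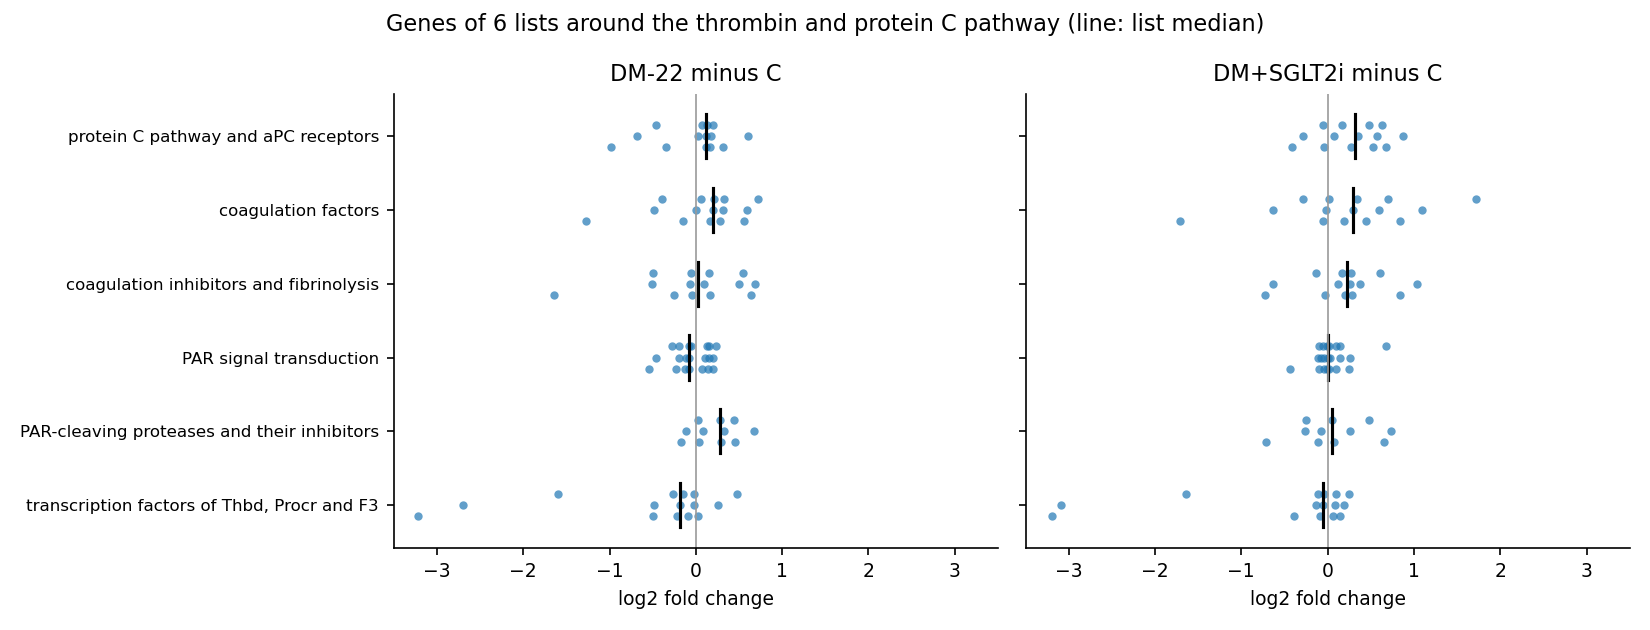
Log2 fold change against C of the tested genes of the 6 lists around the pathway, in DM-22 (left) and DM+SGLT2i (right), 1 point a gene and a line at each list's median. Medians lie between -0.19 and 0.31, and the genes farthest below 0 are Fos and Egr1, which are high in C replicate 9 alone.

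Cdkn1a, the cell-cycle inhibitor p21 that the study followed in these kidneys, was at 72.7, 4.63 and 5.36 CPM in C replicates 2, 8 and 9, at 52.6 and 123 CPM in DM-22, and at 78.6 and 77.3 CPM in DM+SGLT2i. It was thus high in C replicate 2, as Thbd, Procr and F2r were. The order of libraries otherwise differed: DM-22 replicate 2, the highest for Cdkn1a, was the lowest for F2rl1, F3 and Tfpi. Dnmt1, the maintenance DNA methyltransferase, was at 24.7, 30.1 and 27.3 CPM in C, 22.8 and 22.9 CPM in DM-22, and 32.8 and 28.4 CPM in DM+SGLT2i, lowest in the group where Tfpi was lowest. Havcr1 (KIM-1), a marker of proximal tubule injury, was at 29.5, 1.98 and 1.84 CPM in C, 3.98 and 2.17 CPM in DM-22, and 16.9 and 10.4 CPM in DM+SGLT2i, and thus stood high in the libraries where F2r was high. With all libraries 0 of these 3 genes passed the adjusted threshold against C. Without C replicate 2, 1 of the 3 was higher in DM+SGLT2i (limma adjusted p = 0.049, 0.122% of all genes called). The count was also 1 over all diabetic mice (limma adjusted p = 0.045, 0.2%) and 0 in DM-22. C replicate 2 held the highest control values of Cdkn1a (72.7 CPM) and Havcr1 (29.5 CPM). Leaving it out by itself raises the differences of both genes from C, so that these counts are not read as a result.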

How the data were processed

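Polyadenylated RNA of renal tissue was sequenced as 7 libraries (3 C, 2 DM-22, 2 DM+SGLT2i) from a strand-specific kit. The submitters' processing notes name bcl2fastq, FastQC, Trim Galore, STAR, edgeR and mm10, with no versions. The authors deposited 1 table of log2 values, normalized by TMM and with a constant averaging 2 reads. CPM were recovered by inverting this scale, and 100% of values came out as whole reads (tolerance 0.01 reads). Depth was between 46456125 and 56541594 reads. Because the deposited unit is log2, the main test was fitted on a log scale, and voom on the recovered reads was an alternative.

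Of 17537 genes, the 13976 that reached 1 CPM in 2 or more libraries were tested with limma 3.58.1 (R 4.3.3, eBayes with trend) on log2(CPM + 0.5), 3 groups in 1 fit, two-sided, with Benjamini-Hochberg adjustment over all genes tested and a threshold of 0.05. Limma p-values come from this fit unless another setting is named. The steps were tested on simulated data. Member levels relative to 12 endothelial markers were compared by exact permutation tests (scipy 1.17.1). Lengths and positions came from GENCODE M21 (GRCm38), promoters from RefSeq.

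The members and lists were chosen with earlier results of these data known. Named are each member, Cdkn1a, Dnmt1 and Havcr1, of each list the genes past the threshold or else the 2 highest and 2 lowest fold changes in a comparison, the 3 genes most like each member, and list genes whose control and diabetic libraries did not overlap. Genes that make up a count of 5 or fewer, single cell type markers (Slc14a2, Aqp4, Pdgfrb, Pdgfra, Col1a1, Col3a1, Cdh5, Upk1b), Pros1 and F2rl2 were named after their values were seen. Some genes that this rule names are not reported here. Alternatives were another pseudocount, the deposited values, no filter, other scalings, voom, fits on 2 groups, a replicate block and leaving out each library.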

Additional observations from a re-analysis of the deposited data

Results flagged for a closer look

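F2r differed between the diabetic groups in its direction against C: both DM-22 libraries lay below and both DM+SGLT2i libraries above the control mean, a difference of 0.99 on the log2 scale. F2rl3 did the same with a difference of 0.38. Without C replicate 2 the directions were no longer opposite in every library: both DM-22 libraries lay between the other controls for F2r, with DM-22 at -0.058 against C, and for F2rl3 DM-22 turned to 0.11. The difference itself was tested as DM+SGLT2i against DM-22 and did not pass for F2r (limma adjusted p = 0.881). For F2rl3, which passed the filter on low values only through DM+SGLT2i and C replicate 2, it is a description. No group held 4 or more libraries, so that single outlying libraries were not tested for.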

How the results depend on the processing

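No member passed the adjusted threshold under any setting. Over 196 fold changes under other settings, 190 kept their direction and 6 reversed (lowest adjusted p 0.734), and over 196 that left out a library 173 kept it and 23 reversed (lowest 0.112). The 6 reversals under other settings lay near 0, whereas those on leaving out a library ran further, as the ranges below show. F2rl1 in DM+SGLT2i against DM-22 was -0.0016 with a pseudocount of 1 CPM, -0.027 with median-ratio scaling and -0.0019 with voom. Over all diabetic mice Procr was 0.023 on the deposited values and 0.0018 with median-ratio scaling, and F2r -0.0185 with scaling to the library total, which moved the median of all genes by -0.16 in DM-22 replicate 2 and 0.11 in DM+SGLT2i replicate 1. Thbd relative to endothelium was 0.020 against the geometric mean of the list. The causes were not tested.

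Leaving out 1 library at a time, genes called ranged from 0 to 1 higher and 0 to 1 lower in DM-22 against C, from 0 to 15 higher and 0 to 2 lower in DM+SGLT2i against C, and from 0 to 18 higher and 0 to 10 lower in all diabetic mice against C, the upper values without C replicate 2. In DM-22 against C, Thbd ranged from -0.080 to 0.42, Procr from -0.36 to 0.29, F3 from -1.01 to -0.087, F2rl1 from -0.59 to 1.47 and F2rl3 from -0.26 to 0.11. In DM+SGLT2i against C, Thbd ranged from -0.022 to 0.48, Procr from -0.11 to 0.54, F2r from 0.16 to 0.93 and Tfpi from -0.42 to -0.0024. F2rl1 ranged from 0.21 to 0.89, F2rl3 from 0.12 to 0.50 and F3 from -0.60 to -0.28 in the same comparison. In DM+SGLT2i against DM-22, F2rl1 ranged from -1.03 to 1.03 and F3 from -0.36 to 0.57. Over all diabetic mice, Thbd ranged from -0.051 to 0.45, Procr from -0.23 to 0.42, F2r from -0.34 to 0.43, F2rl1 from -0.070 to 0.96 and F2rl3 from -0.069 to 0.31. F3 ranged there from -0.73 without DM-22 replicate 1 to -0.27 without DM-22 replicate 2. Relative to endothelium without C replicate 2, Thbd was 0.12, Procr 0.20, F2r 0.096 and F2rl1 0.56. Genes at an unadjusted limma p under 0.05 ranged from 30 to 1455 higher and 137 to 2070 lower in DM-22 against C and from 44 to 959 higher and 10 to 544 lower in DM+SGLT2i against DM-22.

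Same-numbered diabetic libraries did not deviate together (r = -0.041 over 2 pairs). With 2 pairs this cannot decide whether the numbers pair them. With a replicate block, 0 genes were called (537 higher and 159 lower at an unadjusted p under 0.05). With the block F2r in DM+SGLT2i against DM-22 had a limma adjusted p of 0.734. Its unadjusted limma p was 0.0051, against 0.073 in the main fit. Tfpi no longer had an unadjusted limma p under 0.05 (0.053 with the block). The block leaves the sizes, 0.99 and 0.63, as they are by construction. With 2 or 3 libraries a group, only large differences could pass, and F2rl3 and Procr rest on few reads.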
